A study of Homo sapiens with 6 samples.

Results

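The integrin and laminin chain genes were taken from the RNA-seq counts of OV3/SCR and OV3/COX1KD cells by symbol, as every gene named ITGA with a number or with V, E, L, M, X or D, ITGB with a number up to 8, or LAMA, LAMB or LAMC with a number. This rule gave 36 of the 34811 genes counted, of which 16 encode integrin α subunits, 8 encode integrin β subunits and 12 encode laminin chains (5 α, 4 β and 3 γ chains). OVCAR-3 is an established human ovarian carcinoma cell line. Both groups are stable clones of it, selected with puromycin, that carry a pRS shRNA HuSH-29 plasmid, with a scrambled shRNA in OV3/SCR and an shRNA against COX-1 (gene PTGS1) in OV3/COX1KD, and both were grown in RPMI-1640 with serum. Each group was sequenced as 3 libraries from separately harvested passages of 1 clone, so effects of the knockdown and of the clone picked cannot be told apart, and every p-value measures the spread between passages of a clone.

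Integrins are heterodimers of an α and a β subunit that span the plasma membrane and bind cells to the extracellular matrix. Laminins are cross-shaped trimers of an α, a β and a γ chain, and they form the sheet of the basement membrane on which epithelial cells rest. Cells hold laminin through integrins that contain the α3, α6 or β4 subunit, and collagen through those that contain α1, α2, α10 or α11. They hold fibronectin, vitronectin and the latent form of TGF-β largely through α5 or αv. In ovarian carcinoma these receptors carry the contact of shed tumor cells with the matrix beneath the mesothelium.

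The libraries held between 25291505 and 27391538 counts on genes. The targeted gene PTGS1 had 713, 658 and 641 counts in OV3/SCR and 456, 486 and 501 in OV3/COX1KD, which left 73.3% of the control level. All 12 epithelial and ovarian carcinoma markers were above 3 counts in every library, and they summed to between 4960 and 5017 CPM in OV3/SCR and between 6994 and 7183 in OV3/COX1KD (CPM, counts scaled to the TMM library size). Among them PAX8 went the other way, from a mean of 756 to 447 CPM. The 11 leukocyte markers in the table summed to between 1.95 and 2.42 CPM in OV3/SCR and between 1.31 and 2.35 in OV3/COX1KD, the 6 endothelial markers to between 3.15 and 4.95 CPM in the 6 libraries, and the 11 fibroblast or mesothelial markers to between 27.6 and 30.05 CPM in OV3/SCR and between 37.01 and 39.4 in OV3/COX1KD. UPK3B, a mesothelial marker, held 15.4 of the OV3/SCR sum and 29.0 of the OV3/COX1KD sum as mean CPM. Both groups are clones of the same carcinoma line and not a tissue, and whether any other cells were present was not tested. In these bulk libraries, a smaller share of the cloned cells with a transcript and less of it per cell cannot be told apart.

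Of the 36 genes, 32 passed the filter on low counts and were compared with the quasi-likelihood test of edgeR, and p-values were adjusted by Benjamini-Hochberg over all 17309 genes kept (FDR). The log2 fold change of OV3/COX1KD over OV3/SCR is written log2FC and its standard error SE. At an FDR under 0.01, 10 rose and 13 fell in OV3/COX1KD cells and 9 did not pass. Over all genes tested, 25.8% rose and 22.1% fell at this threshold (47.9% in either direction). With a log2FC beyond 0.5 in addition, 5 rose (ITGA9, ITGB4, LAMA2, LAMC1 and LAMC3) and 7 fell (among them ITGB3, ITGB6, ITGB7, LAMA3, LAMA4 and LAMB3), where 9.87% and 10.0% of all genes did (19.9% in either direction). A fold change above 2.5 was reached by 5 of the 32 genes, all lower in OV3/COX1KD (ITGB3, ITGB6, LAMA3, LAMA4 and LAMB3), where 2.34% of all genes fell and 1.58% rose by that much (3.92% in either direction). Scaling by total counts alone, which shifted the median log2FC of all genes from -0.01 to -0.09, changed the split beyond 0.5 to 3 higher and 9 lower.

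**Figure D1:**
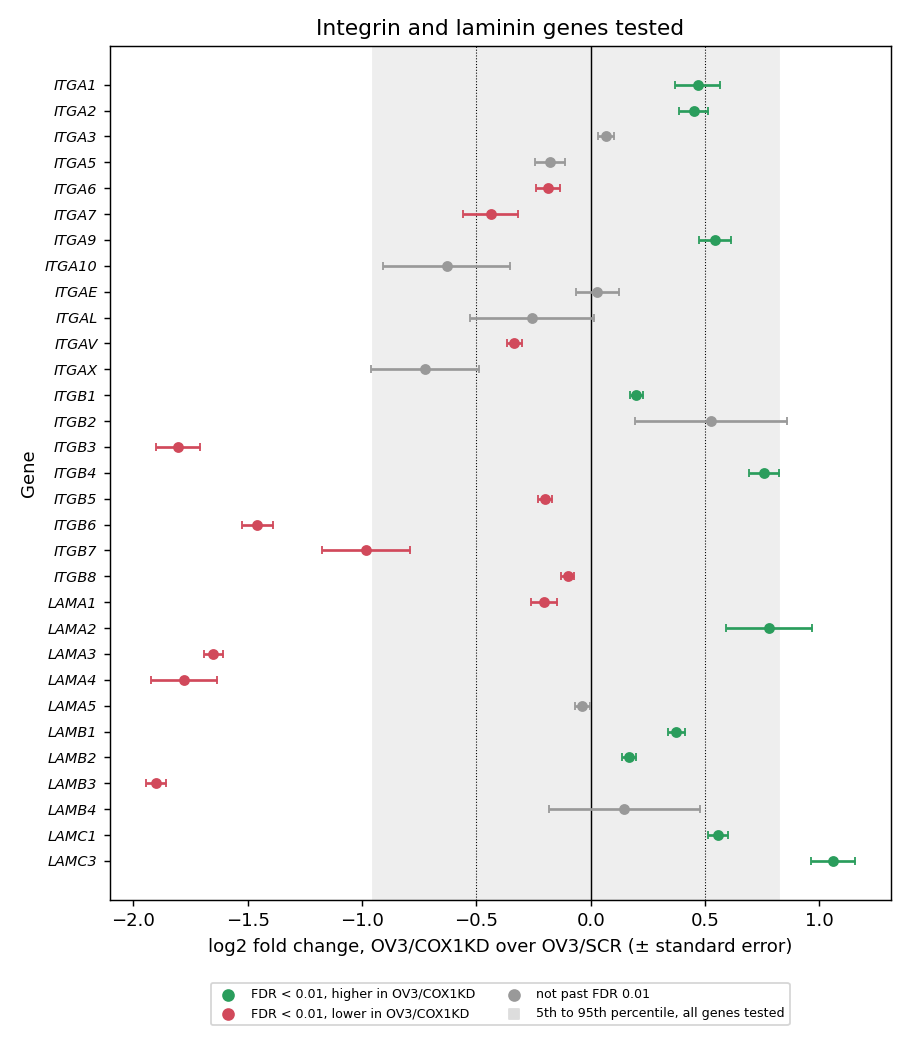
Log2 fold change of OV3/COX1KD over OV3/SCR with its SE for 31 of the 32 genes tested, colored by the edgeR FDR, with dotted lines at -0.5 and 0.5. The grey band spans the 5th to the 95th percentile of all 17309 genes, -0.95 to 0.82, and LAMB3, ITGB3, LAMA4, LAMA3, ITGB6 and ITGB7 lie below it while LAMC3 lies above it.

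LAMA3 and LAMB3 fell. They encode the α3 and β3 chains of a laminin that anchors epithelial cells to the basement membrane at hemidesmosomes. LAMB3 (ENSG00000196878, GRCh37 chromosome 1 from 209788215 to 209825770) had 2653, 2654 and 2679 counts in OV3/SCR and 734, 654 and 703 in OV3/COX1KD libraries. The groups did not overlap, and the level fell from 101.7 ± 2.06 to 27.2 ± 1.69 CPM (SD, n = 3), a log2FC of -1.90 (SE 0.045, edgeR FDR = 2.19e-17).

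LAMA3 (ENSG00000053747, chromosome 18 from 21269417 to 21536186) had 3180, 2977 and 3030 counts in OV3/SCR and 942, 884 and 1038 in OV3/COX1KD libraries. Its level fell from 117 ± 2.54 to 37.2 ± 1.85 CPM (SD, n = 3), a log2FC of -1.65 (SE 0.041, edgeR FDR = 4.91e-17).

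Per kilobase of exon (RPKM, CPM divided by the length of the merged exons in kilobases), the level of LAMB3 in OV3/SCR was 21.9 ± 0.443 and that of LAMA3 8.07 ± 0.175 (SD, n = 3). In OV3/COX1KD the order was the same, with LAMB3 at 5.86 ± 0.364 and LAMA3 at 2.57 ± 0.128 (SD, n = 3).

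The promoter sequences of LAMA3 and LAMB3 are shown because these genes moved in one direction, beside that of LAMC1, a chain that rose, and that of ITGB6. The RefSeq promoter table on GRCh38.p14 held 24 of the 36 genes, with 31 windows of 300 bases (250 before and 50 after a start). LAMB3 had 3 windows, of which the one that starts farthest downstream is shown. They are written 5′ to 3′ on the strand of the gene, and capitals mark matches to the AP-1 motif TGANTCA on either strand.
LAMA3, chr18:23872770-23873069, plus strand: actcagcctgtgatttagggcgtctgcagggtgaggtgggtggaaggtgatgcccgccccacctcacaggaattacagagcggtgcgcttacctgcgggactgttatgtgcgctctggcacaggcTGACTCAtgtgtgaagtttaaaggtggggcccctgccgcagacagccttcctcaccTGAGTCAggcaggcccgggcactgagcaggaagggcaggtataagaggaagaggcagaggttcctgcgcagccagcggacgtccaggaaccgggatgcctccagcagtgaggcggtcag
LAMB3, chr1:209651325-209651624, minus strand: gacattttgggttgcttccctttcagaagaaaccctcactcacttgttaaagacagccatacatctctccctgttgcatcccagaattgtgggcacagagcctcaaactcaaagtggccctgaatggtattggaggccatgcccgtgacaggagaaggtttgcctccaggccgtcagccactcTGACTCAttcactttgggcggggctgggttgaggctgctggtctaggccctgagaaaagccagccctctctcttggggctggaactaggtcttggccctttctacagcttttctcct
LAMC1, chr1:183023170-183023469, plus strand: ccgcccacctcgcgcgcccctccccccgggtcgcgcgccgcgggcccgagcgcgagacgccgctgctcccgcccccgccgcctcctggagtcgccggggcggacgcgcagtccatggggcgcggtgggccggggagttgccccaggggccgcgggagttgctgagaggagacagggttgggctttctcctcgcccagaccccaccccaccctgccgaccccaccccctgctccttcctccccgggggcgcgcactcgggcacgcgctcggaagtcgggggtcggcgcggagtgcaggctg
ITGB6, chr2:160200223-160200522, minus strand: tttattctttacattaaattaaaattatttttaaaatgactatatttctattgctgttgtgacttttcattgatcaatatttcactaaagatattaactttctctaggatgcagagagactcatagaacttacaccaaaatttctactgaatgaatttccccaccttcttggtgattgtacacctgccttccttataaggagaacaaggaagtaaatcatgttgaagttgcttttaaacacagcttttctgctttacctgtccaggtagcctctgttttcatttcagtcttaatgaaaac
The LAMA3 window held 2 matches to the AP-1 motif, 125 and 69 bases before the start, and the LAMB3 window held 1, 67 bases before the start. The other 2 LAMB3 windows held none. For LAMA3 the promoter table held only the window shown, and other starts of the gene were not searched. Where in LAMA3 this start lies was not determined, since gene coordinates are on GRCh37 and the windows on GRCh38.p14. Over all 35116 windows of this length 7.71% held the motif, and among the 31 windows of these genes 3 did, the third being at ITGA5. Other motifs searched on both strands were the GC box GGGCGG (19 of the 31 windows, 44.95% of all windows), TATAAA (2 of the 31, 11.5% of all) and CAGGTG (8 of the 31, 20.6% of all). A match describes letters only, and binding was not measured.

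LAMC1, LAMC3, LAMB1 and LAMB2 rose, although LAMB2 did not pass with total count scaling. LAMC1 (ENSG00000135862, chromosome 1 from 182992555 to 183114727) encodes the γ1 chain of most basement membrane laminins, and had 12266, 12151 and 12575 counts in OV3/SCR and 18323, 15731 and 19279 in OV3/COX1KD libraries. OV3/COX1KD replicate 2 was the lowest of its group and still above every OV3/SCR library. The level rose from 471 ± 13.8 to 693 ± 56.7 CPM (SD, n = 3), a log2FC of 0.56 (SE 0.043, edgeR FDR = 1.20e-09), and total count scaling gave 0.48.

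LAMC3, the γ3 chain, had 134, 131 and 115 counts in OV3/SCR and 255, 269 and 251 in OV3/COX1KD libraries. It rose 2.08-fold, a log2FC of 1.06 (SE 0.097, edgeR FDR = 1.31e-08), from a low level of 4.83 ± 0.334 CPM (SD, n = 3). The β chains LAMB1 and LAMB2 rose by smaller amounts, with log2FCs of 0.37 (SE 0.036, edgeR FDR = 2.61e-08) and 0.17 (SE 0.031, edgeR FDR = 9.08e-05). In CPM the groups did not overlap for either gene. With total count scaling LAMB2 had a log2FC of 0.091 (edgeR FDR = 0.0146). LAMB4 had between 12 and 26 counts per library, and its log2FC of 0.15 (SE 0.33, edgeR FDR = 0.722) did not pass.

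Among the α chains LAMA5 had the highest level per length. LAMA5, the α5 chain of adult epithelial basement membranes, had 43791, 42612 and 41543 counts in OV3/SCR and 41997, 38172 and 41873 in OV3/COX1KD libraries, and the groups overlapped. Its log2FC was -0.04 (SE 0.031, edgeR FDR = 0.334), and total count scaling gave -0.11 with an edgeR FDR of 0.00344. LAMA4, the α4 chain of mesenchymal and vessel wall laminins, had 131, 146 and 141 counts in OV3/SCR and 38, 35 and 46 in OV3/COX1KD libraries. It fell from 5.32 ± 0.362 to 1.54 ± 0.168 CPM (SD, n = 3), a log2FC of -1.78 (SE 0.14, edgeR FDR = 2.50e-09).

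LAMA2, the α2 chain known from muscle, rose from 1.36 ± 0.216 to 2.34 ± 0.263 CPM (SD, n = 3), with 33, 42 and 32 counts in OV3/SCR and 63, 51 and 66 in OV3/COX1KD libraries. Its log2FC was 0.78 (SE 0.19, edgeR FDR = 0.00143), and without OV3/SCR replicate 3 the FDR was 0.0102. LAMA1, the α1 chain of embryonic laminin, fell by 0.20 on the log2 scale (SE 0.056, edgeR FDR = 0.00391), a call that ended without OV3/SCR replicate 2, without OV3/SCR replicate 3 or without OV3/COX1KD replicate 2, with a largest FDR of 0.0337. In counts LAMA1 lay between 1005 and 1044 in OV3/SCR and between 766 and 952 in OV3/COX1KD.

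**Figure D2:**
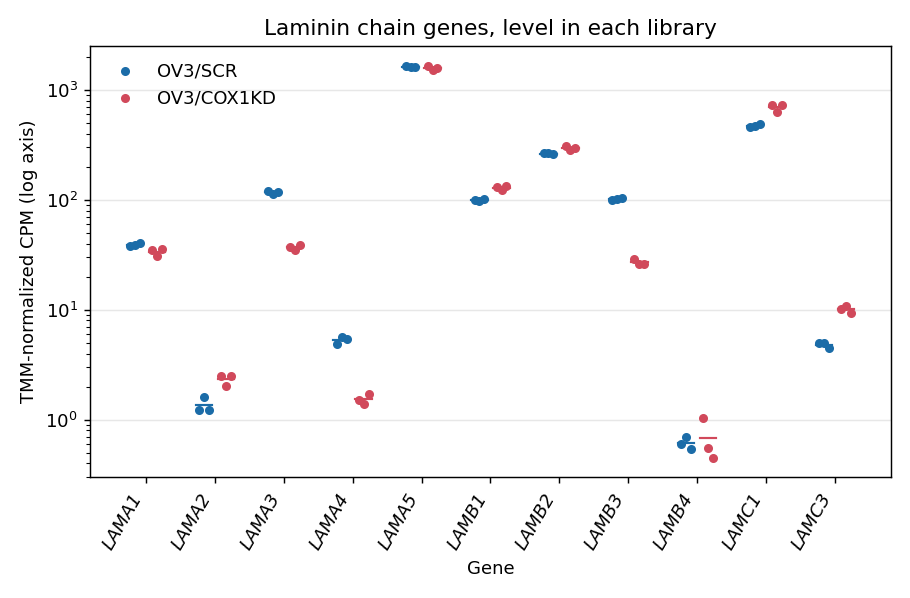
TMM-normalized CPM of 11 laminin chain genes in each library on a log axis, with points for libraries and bars for the mean of each group. LAMA1, LAMA3, LAMA4 and LAMB3 lie lower in all 3 OV3/COX1KD libraries, while LAMA2, LAMB1, LAMB2, LAMC1 and LAMC3 lie higher in all 3.

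The makeup of the laminin α, laminin β and integrin families was compared as shares of the summed RPKM of each in every library, a description with no test. LAMB3 made up 32.7%, 33.3% and 33.7% of β chain RNA in OV3/SCR and 10.8%, 10.4% and 10.1% in OV3/COX1KD libraries. LAMB2 went from 58.5% ± 0.566 to 77.0% ± 0.151 and LAMB1 from 8.15% ± 0.130 to 12.4% ± 0.373 of the β chain RNA (SD, n = 3). LAMA5 was already 91.2% ± 0.175 of α chain RNA in OV3/SCR and reached 95.8% ± 0.225 in OV3/COX1KD, while LAMA3 went from 6.46% ± 0.142 to 2.22% ± 0.109 (SD, n = 3). A share depends on the exon length given to each gene: with the longest transcript in place of the merged exons LAMB3 went from 27.8% to 8.12% of β chain RNA and LAMB1 from 17.4% to 24.7%.

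**Figure D3:**
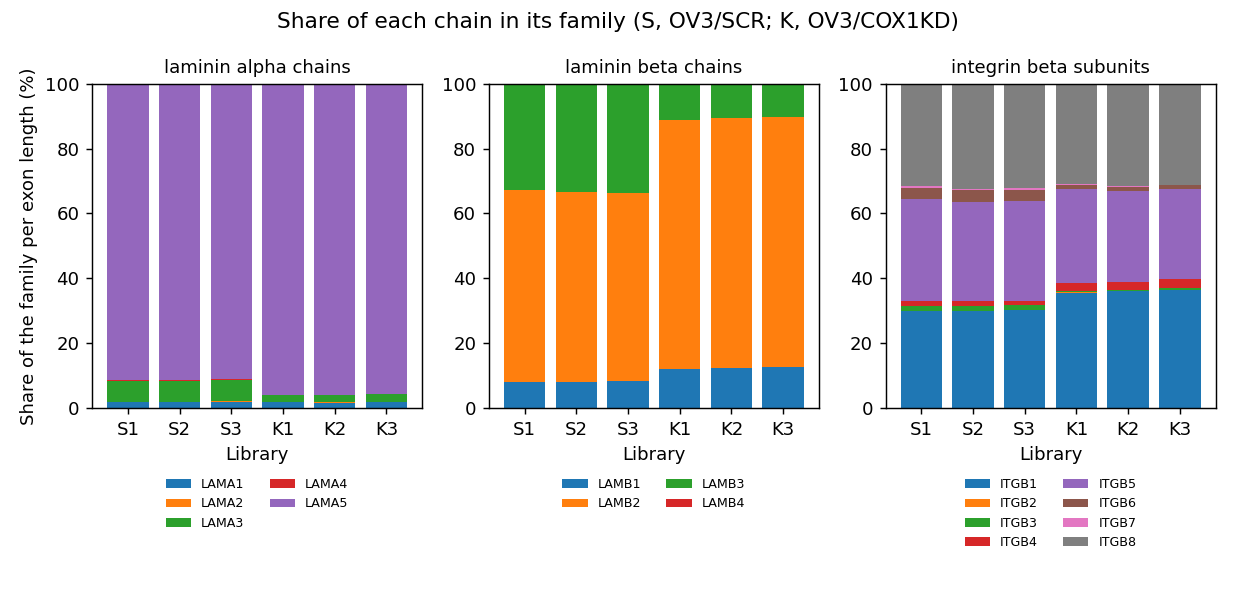
Stacked bars of the share of each laminin α, laminin β and integrin β gene in the summed RPKM of its family, in percent, for OV3/SCR (S) and OV3/COX1KD (K) libraries 1 to 3. The LAMB3 part of the β chains is near 33% in the S libraries and near 10% in the K libraries, and ITGB1, ITGB5 and ITGB8 fill most of the integrin β panel in all 6.

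ITGB3, ITGB5, ITGB6 and ITGB8, the β subunits that pair with αv beside β1, all fell, with log2FCs from -1.81 to -0.10. ITGB6 and ITGB8 form receptors that bind latent TGF-β, ITGB3 and ITGB5 receptors for vitronectin and related matrix proteins. ITGB3 (ENSG00000259207, chromosome 17 from 45331193 to 45391109) had 369, 341 and 327 counts in OV3/SCR and 105, 89 and 96 in OV3/COX1KD libraries. It fell from 13.2 ± 0.604 to 3.78 ± 0.344 CPM (SD, n = 3), a log2FC of -1.81 (SE 0.095, edgeR FDR = 3.79e-12).

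ITGB6 (ENSG00000115221, chromosome 2 from 160956178 to 161056824), an epithelial subunit, had 738, 743 and 706 counts in OV3/SCR and 283, 235 and 261 in OV3/COX1KD libraries. The level fell from 27.8 ± 0.615 to 10.1 ± 0.980 CPM (SD, n = 3), 36.4% of the control (log2FC -1.46, SE 0.068, edgeR FDR = 5.30e-13). ITGB8 (ENSG00000105855, chromosome 7 from 20370325 to 20455377) stood at 669.6 ± 8.54 CPM in OV3/SCR and 624 ± 11.8 in OV3/COX1KD (SD, n = 3), a log2FC of -0.10 (SE 0.028, edgeR FDR = 0.00415). This small fall did not pass with no filter on low counts, without OV3/SCR replicate 2, without OV3/SCR replicate 3 or without OV3/COX1KD replicate 1, with a largest FDR of 0.0375. ITGB5 fell by 0.20 on the log2 scale (SE 0.031, edgeR FDR = 1.65e-05), from 278 ± 3.49 to 242 ± 8.62 CPM (SD, n = 3).

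Their common partner ITGAV (ENSG00000138448, chromosome 2 from 187454737 to 187545628), the αv subunit, had 5338, 5157 and 5190 counts in OV3/SCR and 4065, 3798 and 4321 in OV3/COX1KD libraries. It fell to 79.4% of the control, a log2FC of -0.33 (SE 0.033, edgeR FDR = 3.54e-08). The subunits that fell most were scarce beside the others: of the summed RPKM of the β subunits, ITGB3 held 1.40% ± 0.066 and ITGB6 3.50% ± 0.082 in OV3/SCR, against 0.419% ± 0.034 and 1.33% ± 0.110 in OV3/COX1KD (SD, n = 3). ITGB8, ITGB5 and ITGB1 held 32.1%, 31.0% and 30.1% in OV3/SCR and 31.2%, 28.1% and 36.1% in OV3/COX1KD. In RPKM the levels of ITGB8, ITGB5 and ITGB1 in OV3/SCR were 44.2 ± 0.563, 42.6 ± 0.536 and 41.4 ± 0.343 (SD, n = 3), an order that turned with the longest transcript as length, where ITGB1 held 42.0%, ITGB8 29.2% and ITGB5 24.4%.

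ITGB1 and ITGB4 rose. ITGB1, the β1 subunit shared by most matrix receptors, had between 15610 and 16024 counts in OV3/SCR and between 16800 and 19025 in OV3/COX1KD libraries, a log2FC of 0.20 (SE 0.029, edgeR FDR = 7.79e-06). ITGB4 (ENSG00000132470, chromosome 17 from 73717408 to 73753899), whose protein joins α6 in the hemidesmosome, had 356, 373 and 348 counts in OV3/SCR and 582, 540 and 661 in OV3/COX1KD libraries. Its level rose from 13.7 ± 0.526 to 23.2 ± 1.63 CPM (SD, n = 3), a log2FC of 0.76 (SE 0.066, edgeR FDR = 7.36e-09). ITGB4 thus moved opposite to LAMA3 and LAMB3, genes of a laminin that the α6β4 receptor binds.

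**Figure D4:**
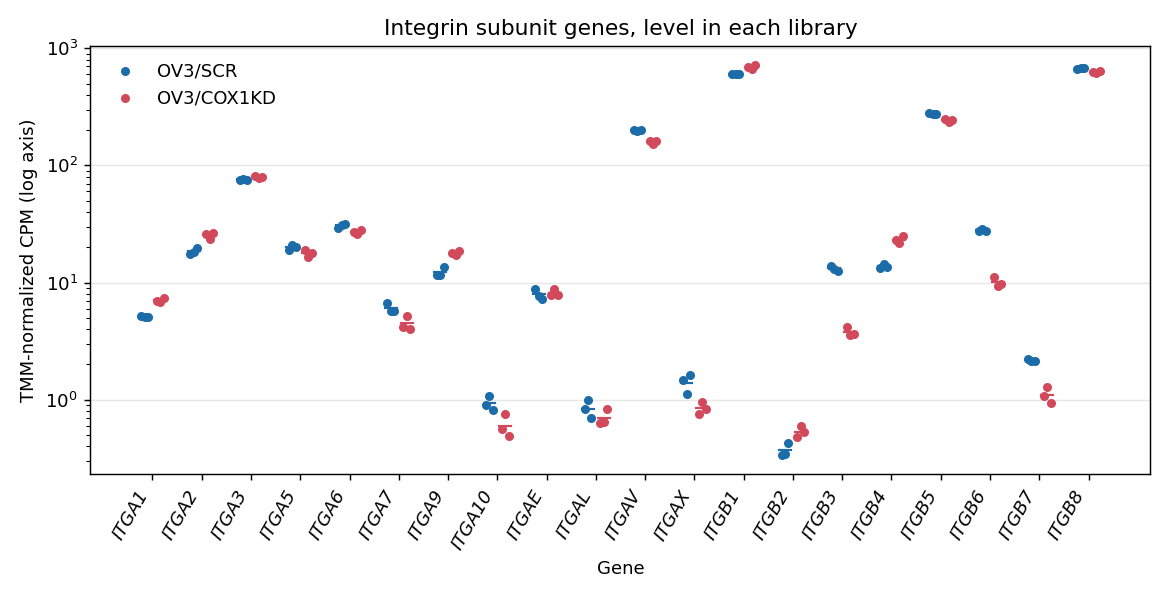
TMM-normalized CPM of the 20 integrin subunit genes tested in each library on a log axis, with points for libraries and bars for the mean of each group. Among other genes, ITGB3, ITGB6 and ITGB7 lie lower and ITGA1, ITGA2, ITGA9 and ITGB4 higher in all 3 OV3/COX1KD libraries.

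Of the 12 α subunits tested, 3 rose, 3 fell and 6 did not pass, where 25.8% and 22.1% of all genes rose and fell, so these shares were near the background. ITGA9 was the 1 α subunit past both the FDR and a log2FC of 0.5. The median size of the log2FC, regardless of sign, was 0.39 over these 12, 0.64 over the 8 β subunits and 0.28 over all genes tested, and the difference between the families was not tested. ITGA9, which pairs with β1 and binds tenascin and osteopontin, had 311, 305 and 349 counts in OV3/SCR and 451, 433 and 494 in OV3/COX1KD libraries, a log2FC of 0.54 (SE 0.071, edgeR FDR = 1.92e-06). Total count scaling gave 0.47.

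Of the collagen receptors, ITGA1 rose by a log2FC of 0.47 (SE 0.098, edgeR FDR = 3.94e-04) and ITGA2 by 0.45 (SE 0.064, edgeR FDR = 5.09e-06). ITGA1 had 138, 132 and 130 counts in OV3/SCR and 175, 170 and 197 in OV3/COX1KD libraries, and ITGA2 466, 475 and 512 against 651, 588 and 706. These genes are neighbours on chromosome 5. Tested genes within 2 Mb with a mean log2 CPM of 1 or more had positive medians too, each gene being counted among those around the other. The median log2FC was 0.26 over 9 genes around ITGA1 (2 lower) and 0.29 over 8 around ITGA2 (2 lower). ITGA10 had between 21 and 28 counts in OV3/SCR and between 13 and 19 in OV3/COX1KD, and its log2FC of -0.63 (SE 0.28, edgeR FDR = 0.0585) did not pass. ITGA11 had 1 to 3 counts per library and was not tested.

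Of the laminin receptors, ITGA3, the α3 subunit, had 75.8 ± 1.28 CPM in OV3/SCR and 79.4 ± 1.39 in OV3/COX1KD (SD, n = 3), and its log2FC of 0.07 (SE 0.035, edgeR FDR = 0.117) did not pass and was -0.01 with total count scaling. ITGA6 fell by 0.19 on the log2 scale (SE 0.053, edgeR FDR = 0.00525), and ITGA7 fell by 0.44 (SE 0.12, edgeR FDR = 0.00436). Both calls ended by DESeq2 (FDR 0.0172 and 0.0114) and when single libraries were left out, with largest FDRs of 0.0397 and 0.0344. The ITGA6 call also ended with no filter on low counts (FDR 0.0161). These libraries were OV3/SCR replicates 2 and 3 and OV3/COX1KD replicates 1 and 2 for ITGA6, and OV3/SCR replicates 1 and 2 and OV3/COX1KD replicates 1 and 3 for ITGA7. ITGA5, the fibronectin receptor subunit, had a log2FC of -0.18 (SE 0.064, edgeR FDR = 0.0227), which passed with total count scaling alone (FDR 0.00157). ITGA8 had 3 to 7 counts per library and was not tested.

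Per length, ITGAV and ITGA3 were the leading α subunits. In RPKM, ITGAV stood at 10.3 ± 0.079 and ITGA3 at 7.74 ± 0.130 in OV3/SCR, and at 8.19 ± 0.308 and 8.10 ± 0.142 in OV3/COX1KD (SD, n = 3), where the 2 levels lay within their spread on this length. ITGAV made up 32.4% ± 0.401 of the α subunit RNA in OV3/SCR and 26.8% ± 0.325 in OV3/COX1KD, and ITGA3 24.3% ± 0.521 and 26.5% ± 0.457 (SD, n = 3). With the longest transcript as length the levels in OV3/COX1KD were apart, with ITGAV at 38.0% ± 0.542 and ITGA3 at 27.7% ± 0.415 of the α subunit RNA (SD, n = 3).

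Apart from ITGAE, the subunits known from leukocytes were scarce, beside leukocyte markers that summed to at most 2.42 CPM in any library. ITGAL had 16 to 26 counts per library, ITGAX 19 to 42 and ITGB2 9 to 15, and the log2FCs of -0.26, -0.72 and 0.53 did not pass (edgeR FDR 0.433, 0.0135 and 0.185). ITGAM, with at most 3 counts, and ITGAD, with 1 count in 1 library and 0 in the other 5, were not tested, and no fold is given for genes at or under 3 counts. The FDR of ITGAX was under 0.01 in 4 of the 12 alternatives, at the lowest 0.00665. ITGAE, the αE subunit that binds E-cadherin, had 188 to 235 counts per library and a log2FC of 0.03 (SE 0.096, edgeR FDR = 0.804). ITGB7 had 59, 56 and 55 counts in OV3/SCR and 27, 32 and 25 in OV3/COX1KD libraries, a log2FC of -0.98 (SE 0.19, edgeR FDR = 2.14e-04). Exons of ZNF740 on the other strand cover 42.3% of the exon length of ITGB7, so its counts are uncertain. ZNF740 itself had 1949 to 2235 counts per library and a log2FC of 0.10 (edgeR FDR = 0.0438).

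Partner genes were described by counts from lists of textbook members. The lists were chosen with earlier results of these data known, so their counts beside all genes are a description and not independent evidence. The list of basement membrane genes and other laminin receptors had 22 of 26 genes tested, of which 15 rose and 5 fell at an FDR under 0.01 beside 25.8% and 22.1% of all genes, with a median log2FC of 0.38 beside -0.01 over all genes tested. The 5 falls became 3 with the replicate block, by DESeq2, and without any 1 of OV3/SCR replicates 1, 2 and 3 or OV3/COX1KD replicates 1 and 3. The largest rises were those of NTN4, a netrin that binds laminin γ chains, at 1.51 (SE 0.084, edgeR FDR = 8.67e-12), and of the basement membrane proteins SMOC1 at 1.41, FREM1 at 1.32 and SMOC2 at 1.17 on the log2 scale (largest edgeR FDR of the 3 genes 8.29e-08). COL17A1, the transmembrane collagen of the hemidesmosome, fell by 1.63 (SE 0.18, edgeR FDR = 2.38e-07), with 96, 95 and 101 counts in OV3/SCR and 21, 32 and 39 in OV3/COX1KD libraries. BCAM, a receptor for the laminin α5 chain chosen after its values were seen, rose by 1.02 on the log2 scale (SE 0.031, edgeR FDR = 1.18e-15), with 12949 to 13758 counts in OV3/SCR and 25906 to 26847 in OV3/COX1KD libraries.

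Of the genes that act at the cytoplasmic side of integrins, 38 of 39 were tested, and 13 rose and 11 fell beside 25.8% and 22.1% of all genes, with a median log2FC of 0.10. Total count scaling turned this split to 10 higher and 13 lower. TNS4, a tensin that binds the β subunit tail, fell most, by 2.75 (SE 0.20, edgeR FDR = 6.66e-10), with 105, 123 and 98 counts in OV3/SCR and 20, 14 and 13 in OV3/COX1KD libraries. ZYX, the focal adhesion protein zyxin, fell by 1.12 (SE 0.037, edgeR FDR = 3.83e-15), and FERMT3, the kindlin of blood cells, by 1.17 (SE 0.28, edgeR FDR = 0.00128) at 9 to 35 counts per library. PARVB, a parvin of the complex around integrin-linked kinase, rose by 1.44 (SE 0.22, edgeR FDR = 1.36e-05), with 46, 19 and 36 counts in OV3/SCR and 105, 75 and 89 in OV3/COX1KD libraries.

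The latent TGF-β list held the TGF-β ligand genes, the LTBP genes, LRRC32 and LRRC33, not all of which encode proteins that αv integrins bind. Of its 9 genes 8 were tested, of which 2 rose and 3 fell, near the 25.8% and 22.1% of all genes, with a median log2FC of -0.07. TGFB1, the ligand in the complex bound by the β6 and β8 receptors, had 327, 351 and 333 counts in OV3/SCR and 421, 342 and 389 in OV3/COX1KD libraries, and its log2FC of 0.22 (edgeR FDR = 0.0217) did not pass. TGFB1 lies outside the rule on names and was chosen after its values were seen.

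**Figure D5:**
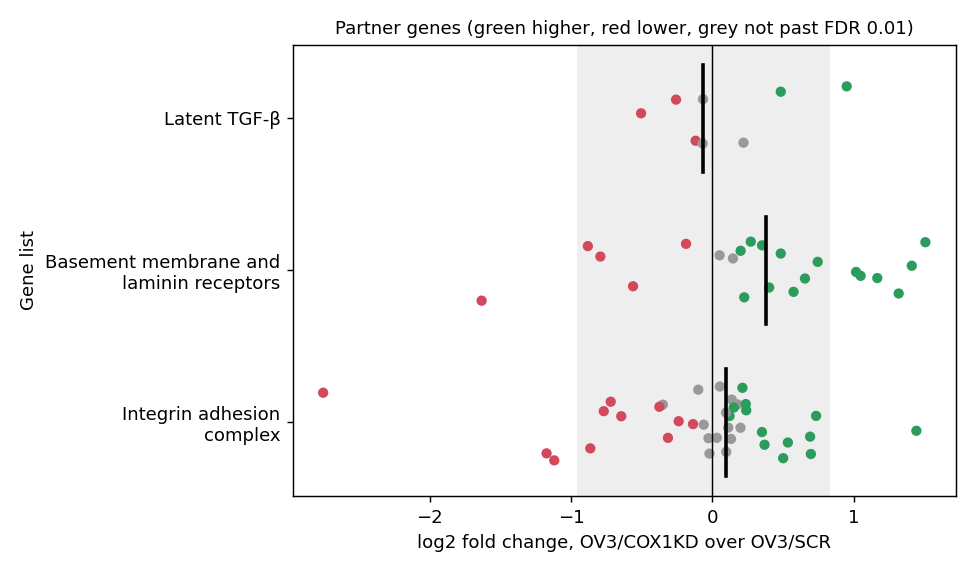
Log2 fold change of the tested genes of the 3 partner lists, 1 point per gene (the vertical scatter within a list carries no value), with a black bar at the median of each list and the 5th to 95th percentile of all genes in grey. The basement membrane list has its median at 0.38 and the other lists have theirs at 0.10 and -0.07.

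Genes near each chain gene were listed to set its change beside theirs. Tested genes within 2 Mb whose mean log2 CPM was 1 or more were taken for each gene past both thresholds (7 to 63 neighbours). Among the genes named above, the medians lay between -0.08 (ITGB4) and 0.12 (LAMC3). The 13 neighbours of LAMB3 had a median of 0.02, the 13 of LAMA3 0.03, the 45 of ITGB3 0.05 and the 11 of ITGB6 0.08, so the falls of these 4 genes were not shared by the median gene around them.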

How the data were processed

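RNA-seq libraries were made with the Illumina TruSeq RNA kit from OV3/SCR and OV3/COX1KD cells (3 each). Alignment by the authors used TopHat2 (version 2.0 per the labels) on hg19, and the deposited values are unnormalized HTSeq counts. The annotation and strand setting are not given in the sources used here. The genes and lists described were chosen with earlier results of these data known. Counts were scaled by TMM, filtered with filterByExpr and tested with edgeR 4.0.16 (glmQLFit, glmQLFTest) in R 4.3.3, with condition as the only factor, over 17309 genes. The thresholds, an FDR under 0.01, a log2 fold change beyond 0.5 and a fold change above 2.5, are those of the study. The standard error is the size of the log2 fold change divided by the square root of F. Detection was limited to 3 counts, 0.113 to 0.120 CPM, which covers counting error only. Gene coordinates and exon lengths came from the GRCh37 lift of GENCODE 44, with all 36 genes matched by ID. Promoter sequences came from RefSeq on GRCh38.p14. Genes matching the rule were named, with full values past both thresholds, except 1 that is not reported here. Of the lists, up to 4 genes per direction beyond a log2 fold change of 1 were named. ITGA4 was not analysed here. Alternatives were RLE and total count scaling, no filter, a minimum of 10 counts per library, DESeq2 1.42.0, a replicate block and leaving out each library. Scripts were tested on simulated data. Libraries of 1 group differed by more than sampling noise (chi-square per degree of freedom 1.82 to 6.31). The value was 4.83 and 6.31 for OV3/COX1KD replicate 2 against replicates 1 and 3, and 1.89 between replicates 1 and 3.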

Additional observations from a re-analysis of the deposited data

How the results depend on the processing

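The number of integrin and laminin genes past an FDR of 0.01, 23 as reported, lay between 19 and 25 over the 12 alternatives. With a log2 fold change beyond 0.5 as well, the number, 12, lay between 12 and 16. The 16 (7 higher and 9 lower) came without OV3/COX1KD replicate 2, and every other alternative gave 12 or 13. The 5 falls above 2.5-fold were 5 in each alternative. Leaving out 1 library gave 19 to 22, 12 to 16 and 5 of these calls. Over all genes total count scaling moved the share of calls that were higher in OV3/COX1KD from 53.9% to 41.0%. Of the 32 genes tested, 20 kept their direction and side of the FDR threshold in every alternative that could be computed. The log2 fold change turned negative with total count scaling in ITGA3 (-0.012) and ITGAE (-0.048), in ITGAE also without OV3/SCR replicate 3 (-0.024) and without OV3/COX1KD replicate 2 (-0.021), and in LAMB4 without OV3/COX1KD replicate 1 (-0.28). Leaving out 1 library, ITGAE ranged from -0.024 to 0.117 and LAMB4 from -0.28 to 0.381. None of these had an FDR under 0.01, and the cause was not tested.

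The labels speak of replicate pairs at harvest without saying that the replicate number marks a pair, and the numbers were not taken to pair the libraries, since deviations of same-numbered libraries from their group means correlated across genes at 0.0045, 0.042 and 0.0090. With the replicate block 23, 12 and 5 genes passed the 3 thresholds, and the lists gave 24, 18 and 5 calls in place of 24, 20 and 5. At this depth, changes of genes with under about 30 counts per library, such as ITGA10, ITGAL, ITGB2 and LAMB4, had standard errors of 0.27 to 0.33 on the log2 scale.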

Other observations

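ITGB8 lay among genes that were mostly higher in OV3/COX1KD. Its 11 tested neighbours within 2 Mb had 0.57 as the median log2FC, and 2 were lower, while ITGB8 itself had -0.10.

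Proteoglycans and other proteins that link laminin to the cell surface were among the 15 rises of the basement membrane list and were chosen after their values were seen. HSPG2, which encodes perlecan, had 2116, 2115 and 2120 counts in OV3/SCR and 4629, 3419 and 4822 in OV3/COX1KD libraries (log2FC 1.05, SE 0.074, edgeR FDR = 2.83e-10). DAG1, which encodes dystroglycan, rose by 0.65 on the log2 scale (edgeR FDR = 2.52e-12) and AGRN, which encodes agrin, by 0.20 (edgeR FDR = 3.50e-05). NID2, a nidogen that bridges laminin and type IV collagen, fell by 0.88 (edgeR FDR = 1.56e-10), while the type IV collagen genes COL4A1 and COL4A2 rose by 0.48 and 0.57 (edgeR FDR = 1.30e-09 and 1.42e-10).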
